A study of Mus musculus with 5 samples.

Results

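Cornifying squamous cells were examined in 7-day mouse salivary gland organoids (mSGOs), cultures grown in Matrigel from dissociated submandibular gland. They were taken as the 300 highest-ranked of 3221 eligible cell barcodes in the 3 7-day libraries, which held 44975 of the 72788 barcodes of the series. A barcode was eligible with at least 2000 unique molecular identifiers (UMIs, each standing for 1 captured transcript), a mitochondrial UMI share of at most 5% and a share of at least 1% for Malat1, a nuclear RNA. Eligible barcodes were ranked by the summed UMI share of 8 genes, namely Sprr1a, Krt23, Klk10, Klk14, Sprr2d, Sprr2e, Ceacam1 and Nccrp1. The members were thus chosen by their measured UMI shares of these genes, and every contrast between these 300 barcodes, called members, and the remaining 2921 is a description of what was ranked, with no test.

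The 7-day libraries were untreated mSGOs (control), mSGOs given 7 Gy of photons on day 5 (photon) and mSGOs given 7 Gy of protons on day 5 (proton), all grown from 4 animals and collected on day 7. An untreated 11-day mSGO library, whose matrix header names another software version, and a library of freshly isolated gland served for comparison. Whether the 11-day library shared animals or a run with the others was not settled. All mice were C57BL/6, labelled as 8 to 12 weeks old except for the 11-day library, whose label gives no age, and the study's methods state that only females were used. Organoids of every group grew in a medium with EGF, FGF2, dexamethasone, the kinase inhibitor Y27632, R-spondin1 and Wnt3a, and 45000 propidium iodide-negative cells were sorted per sample. Each group was 1 library, so there is no replicate error, and intervals are 95% intervals that cover counting error only.

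Cornification is the programme by which a stratified epithelium turns its upper layers into a barrier. Cells leave the basal layer, lose integrin and hemidesmosome contacts, change keratins and make precursor proteins that transglutaminases cross-link into an envelope under the plasma membrane. Small proline-rich (Sprr) proteins are such precursors, and their genes lie together on mouse chromosome 3 in the epidermal differentiation complex. Squamous change of duct epithelium is known in salivary glands.

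The 7-day libraries held 16908611 to 30957157 UMIs, and 6.15% to 12.2% of their barcodes were eligible. They shared 33 to 98 barcode sequences in pairs, and no barcode was a member in more than 1 library. Members held a median of 8073, 6666 and 8864.5 UMIs in the control, photon and proton libraries, against 6601.5, 5824 and 5987.5 in the remaining barcodes. Thinned to 2000 UMIs, members had 755, 819 and 812.5 detected genes against 830, 861 and 847. A doublet caller marked 2 members, both in the photon library. The part of depth in the contrasts with the remaining barcodes was not tested.

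The control library held 93 members among 875 eligible barcodes (10.6%, 8.66 to 12.9%). In the photon library 123 of 1200 (10.2%, 8.59 to 12.1%) and in the proton library 84 of 1146 (7.33%, 5.89 to 8.99%) were members. The proton share was the lowest, and its counting interval overlapped both others. Scores were continuous at the edge of the set. The 5 lowest members had summed shares of 0.146% to 0.152% and the 5 barcodes just outside had 0.143% to 0.146%, while the median was 0.403% in members and 0.0129% in the rest.

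**Figure D1:**
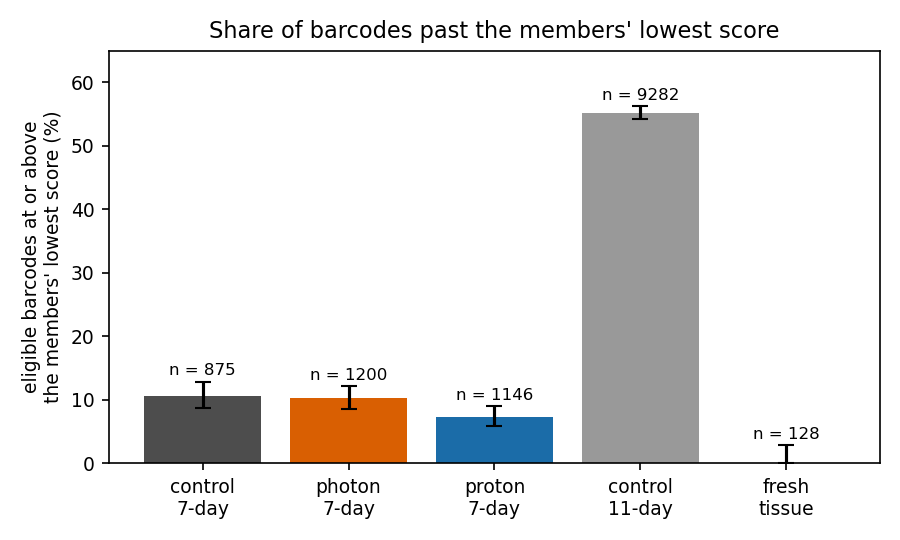
Percentage of eligible barcodes at or above the lowest score of the 300 members in each of the 5 libraries, with 95% Clopper-Pearson intervals for counting error. The 3 7-day libraries lie between 7.33% and 10.6%, the 11-day library is at 55.2% and fresh tissue is at 0.

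The 8 ranking genes did not weigh equally. Sprr1a supplied 68.4% of their UMIs in members and led the score of 236 members, Sprr2d supplied 25.2% and led in 60, and Krt23, an acidic keratin, led in 4. The kallikreins Klk10 and Klk14, secreted serine proteases, had UMIs in only 11 and 8 members. At least 3 of the ranking genes were present in 172 members. Sprr1a was at 5399, 9048 and 9320 CPM (UMIs of the gene in every 1000000 UMIs) in control, photon and proton members against 115, 118 and 90.6 CPM in the remaining barcodes. Sprr2d was at 1727, 3643 and 3317 CPM against 65.7, 91.1 and 56.9. Values are given below in this order of libraries.

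Upstream sequences of 4 Sprr genes are shown because this family carried most of the score and most of the envelope transcripts. They are the 250 bases before the annotated start in RefSeq (GRCm38.p6), for Sprr1a at chr3:92485882-92486131 (minus strand), Sprr2d at chr3:92338890-92339139, Sprr2f at chr3:92364937-92365186 and Sprr2h at chr3:92385435-92385684 (plus strand), written 5′ to 3′ along the gene. Capitals mark matches to the AP-1 motif TGANTCA and to the TATA motif TATAAA.
Sprr1a: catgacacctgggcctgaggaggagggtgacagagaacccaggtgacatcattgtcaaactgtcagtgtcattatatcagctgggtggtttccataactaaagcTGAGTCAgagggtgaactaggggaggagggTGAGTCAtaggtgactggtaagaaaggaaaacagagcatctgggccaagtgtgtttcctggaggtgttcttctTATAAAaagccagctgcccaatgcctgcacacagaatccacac
Sprr2d: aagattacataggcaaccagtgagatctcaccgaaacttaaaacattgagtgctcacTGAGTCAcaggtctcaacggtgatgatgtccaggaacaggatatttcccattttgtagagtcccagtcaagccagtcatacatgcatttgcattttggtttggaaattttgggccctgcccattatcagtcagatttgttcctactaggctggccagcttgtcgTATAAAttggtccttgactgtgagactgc
Sprr2f: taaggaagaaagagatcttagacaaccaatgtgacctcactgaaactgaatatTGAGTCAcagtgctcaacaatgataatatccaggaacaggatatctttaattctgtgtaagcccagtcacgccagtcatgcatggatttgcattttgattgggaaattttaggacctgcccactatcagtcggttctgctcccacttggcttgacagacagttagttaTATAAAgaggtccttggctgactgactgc
Sprr2h: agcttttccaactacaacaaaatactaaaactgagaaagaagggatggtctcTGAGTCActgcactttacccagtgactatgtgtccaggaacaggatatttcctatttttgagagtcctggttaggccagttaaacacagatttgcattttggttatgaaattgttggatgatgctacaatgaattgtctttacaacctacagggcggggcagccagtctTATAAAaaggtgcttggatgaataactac

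The Sprr1a sequence held TGAGTCA at positions -146 and -116 and TATAAA at -43, counted back from the start site. In Sprr2d, Sprr2f and Sprr2h, TGAGTCA stood at -193, -197 and -198 and TATAAA at -29. Of the 254 genes at least 2-fold higher in members, described below, 182 had an upstream sequence of this length, and 24 of these (13.2%) held TGANTCA on either strand. The share was 4.98% of 221 genes lower in members, 4.52% of 3913 tested genes and 6.87% of all 27025 sequences. For TATAAA the shares were 14.3%, 9.05%, 6.54% and 12.97% in the same order. The KLF-type letters GGGNGTGG stood in 25.3%, 25.3%, 22.1% and 15.8%, the C/EBP-type letters TTGCNNAA in 9.34%, 8.60%, 7.36% and 9.55%, and the GRHL-type letters AACCNGTT in 1.10%, 1.81%, 1.43% and 1.71%. The Sprr2 sequences are near copies of each other, so their matches are not independent, and a match is a run of letters and not a measured binding site.

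Beyond the ranking genes, the genes highest in members included other envelope, keratin and barrier genes, beside genes outside these groups. For each library, UMIs were summed over members and over the remaining barcodes, scaled to CPM and compared as a log2 ratio with 1 CPM added to both. Of 4869 genes tested (at least 200 UMIs in eligible barcodes and 20 CPM in members or rest), 254 (5.22%) were at least 2-fold higher in members in each of the 3 libraries. In the other direction 289 (5.94%) were at least 2-fold lower in each. The median log2 ratio of the tested genes was -0.26, -0.23 and -0.26. Scaling by median of ratios instead gave 371 higher and 122 lower. With at least 2500 detected genes per barcode, a limit in the study's methods, the 300 highest were 37.1% to 54.3% of the barcodes left, and 42 were higher and 3 lower. Higher and lower below mean that this limit was passed in each library.

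Sprr2f, an envelope precursor not used for ranking, was the most abundant transcript among the 20 highest genes. It was at 17470, 18820 and 19830 CPM in members against 1116, 1054 and 827, log2 ratios of 3.97, 4.16 and 4.58. Levels in members differed little between the libraries, although reads of Sprr2d, Sprr2e, Sprr2f, Sprr2h and Sprr2i may be split uncertainly among these similar genes. Cnfn, which encodes the envelope protein cornifelin, was the highest by the smallest of its 3 ratios. It was at 791, 922 and 1342 CPM against 22.9, 35.3 and 16.7, log2 ratios of 5.05 (4.84 to 5.39), 4.67 (4.50 to 4.92) and 6.25 (6.05 to 6.62). Cnfn was listed at 0 in 187 of the 300 members, so its level came from a minority of them. Krt6b, a stress keratin of stratified epithelia with the near copy Krt6a, was at 1674, 1438 and 1345 CPM against 66.4, 61.9 and 40.1. Crct1, a gene of the chromosome 3 complex, was at 1020, 2097 and 2149 CPM against 65.7, 86.2 and 58.3. It was lower in control members than in those of either irradiated library. That held in ranks 1 to 100, at 2923, 4086 and 4280 CPM. It did not hold in ranks 101 to 300, at 363.5, 363.4 and 239.7 CPM.

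Spink5, whose product LEKTI inhibits epidermal kallikreins, was at 505, 954 and 875 CPM against 45.7, 47.9 and 39.4. Elovl4, which elongates the very long fatty acids of barrier ceramides, was at 214, 150.2 and 210.3 CPM against 12.1, 12.2 and 10.1. Gjb2, the gap junction protein connexin 26, was at 392, 545 and 441 CPM against 38.4, 24.4 and 17.8. For each of these the lowest library of members lay far above the highest library of the rest, which follows largely from how the 20 genes were picked. Defb14, an antimicrobial beta-defensin, was at 303, 649 and 275 CPM against 31.9, 41.7 and 22.2. Aldh1a3, which makes retinoic acid, was at 116, 536 and 228 CPM against 12.3, 19.0 and 13.3. Both were highest in photon members. The calmodulin-like Calml3 was at 111, 251 and 337 CPM against 10.4, 12.5 and 7.99, and Krt20, a keratin known from urothelial umbrella cells and gut, was at 84.4, 100.2 and 205 CPM against 8.02, 8.50 and 5.33. These were lowest in control members. The rest of the 20 highest were Ly6g6c, Cidea, Sprr2i, Sprr2h, Pdzk1ip1, Tmprss11g, Gdpd1, Mal2 and Krt10, with log2 ratios between 3.06 (Krt10, photon) and 5.62 (Ly6g6c, proton). Like Cnfn, several were listed at 0 in most members. This was 250 of 300 for Krt20, 232 for Ly6g6c, 218 for Cidea, 205 for Calml3, 198 for Sprr2i and 182 for Tmprss11g. Elovl4, Gdpd1 and Aldh1a3 were at 0 in 165, 165 and 154.

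**Figure D2:**
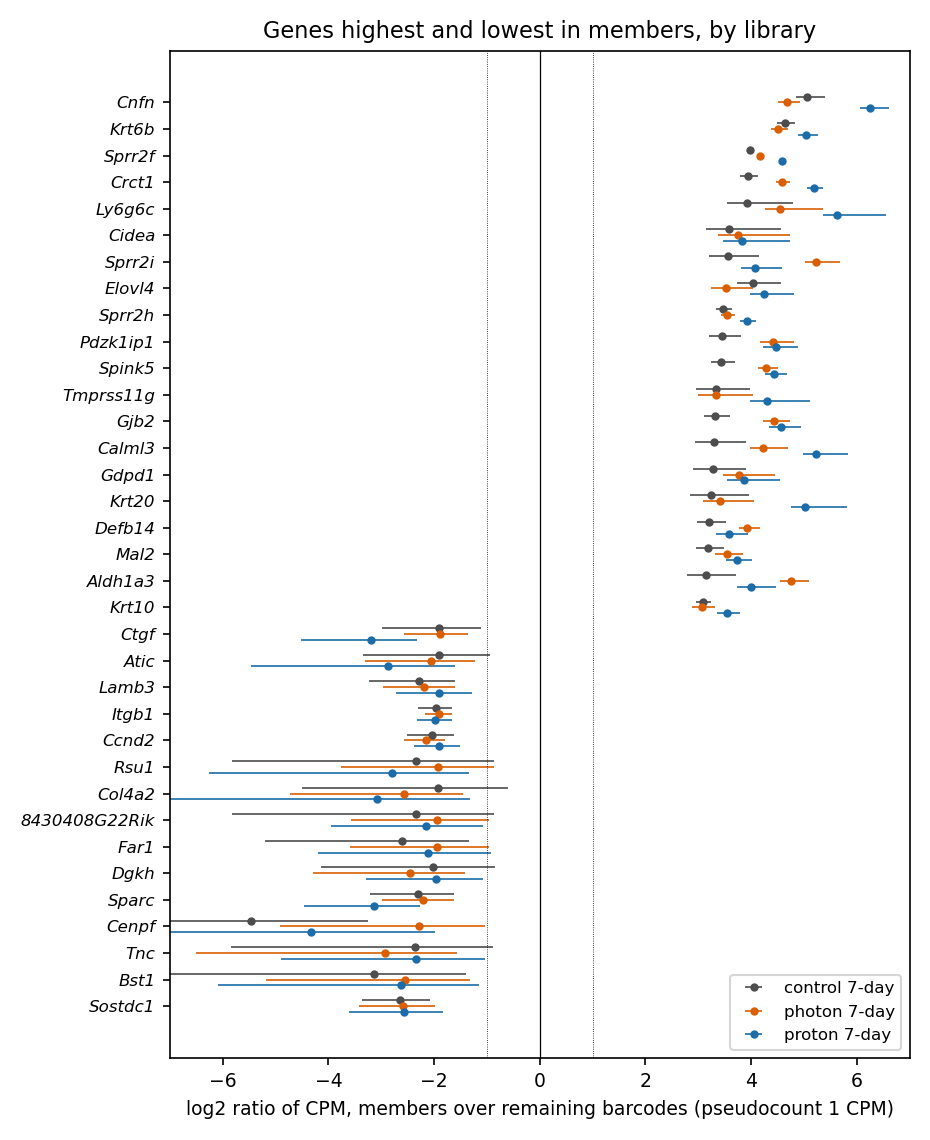
Log2 ratio of CPM, members over remaining barcodes, for the 20 highest and 15 lowest genes in each 7-day library, with 95% counting intervals drawn as far as the axis reaches. Sprr2f lies at 3.97, 4.16 and 4.58, and Itgb1 lies at -1.96, -1.91 and -1.98.

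Against markers of cornifying epithelium that the ranking did not use, the label held for some and not for others. Of 27 measured cornified envelope precursors (at least 10 UMIs) 20 were higher and none lower, with median log2 ratios of 2.43, 2.50 and 3.14. Over all 12152 genes with at least 10 UMIs, 3.51% were higher and 5.34% lower. The summed level of the list was 28370, 31290 and 31650 CPM in members against 2994, 2392 and 2025. The list holds Sprr genes outside the ranking, so it was not independent of the ranking. Sprr2f alone was at 17470, 18820 and 19830 CPM in members. Dmkn (dermokine), a secreted protein of the upper epidermis, was at 3879, 3486 and 3665 CPM against 611, 399.6 and 363. Krtdap, a secreted protein of differentiating keratinocytes, was at 1540, 1552 and 839 CPM against 388, 165 and 126, and Sbsn, suprabasin, at 621, 810.4 and 730.4 CPM against 109, 107 and 111. These and Krt13, Krt10, Krt4, Tgm1 and Cnfn were higher in members.

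The classical late envelope genes were scarce, and Ivl and Lor were not higher in each library. Ivl (involucrin) was at 11.0, 14.3 and 24.5 CPM in members against 12.5, 15.6 and 12.1, log2 ratios of -0.16, -0.12 and 0.97. Lor (loricrin), the main envelope protein of epidermis, was at 3.67, 7.15 and 12.9 CPM against 5.12, 3.54 and 4.07, log2 ratios of -0.39, 0.84 and 1.46. Neither was higher in all 3 libraries, and Lor passed the limit in the proton library only. Ivl was listed at 0 in 276 and Lor in 285 of the 300 members, so both rest on few UMIs. Flg (filaggrin) passed the limit on 22 UMIs in all members, and Krt1, the usual partner of Krt10 in epidermis, was at 2.45, 1.02 and 1.29 CPM in members against 0.171, 0.283 and 0.140 CPM, from 4 UMIs in each, too few to place it. Outside the Sprr family, which the ranking largely fixed, Cnfn, Dmkn, Krtdap, Sbsn, Krt10 and, on few UMIs, Flg thus went with the label. Ivl and Lor, also on few UMIs, did not pass the limit in each library.

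Among keratins, 7 of 10 measured suprabasal and stress keratins were higher and 1 lower. Krt13, the keratin of oral and other moist stratified epithelia, was at 2825, 2750 and 2747 CPM against 462, 310.4 and 269. Krt6a was at 5406, 5429 and 5118 CPM against 1302, 1261 and 1160. Both were level across the libraries' members. Krt17 was the lower one, at 911, 1276 and 887 CPM against 2474, 2666 and 2841. Krt10, a keratin of cornifying epidermis, was at 1125, 399.6 and 520.1 CPM against 132, 46.9 and 43.6 and was highest in control members.

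Genes that tie a basal cell to its matrix were lower, whereas the basal keratins were not. Of 18 measured basal layer and hemidesmosome genes 10 were lower and none higher, with medians of -1.49, -1.43 and -1.37. Krt14 was at 5399, 5249 and 4577 CPM in members against 5134, 4886 and 5115, log2 ratios of 0.07, 0.10 and -0.16. Krt5, its partner, had log2 ratios of -0.70, -0.18 and -0.46, and Krt15 of -0.05, 0.03 and -0.12. None of the 3 passed the limit in any library. Itgb1, the integrin beta 1 chain, was at 105, 133 and 103 CPM against 412, 500.3 and 409. Lamb3, a chain of the basement membrane protein laminin 332, was at 17.1, 20.4 and 23.2 CPM against 87.9, 97.3 and 89.6. Members and rest did not overlap across libraries for Itgb1 or Lamb3. Trp63, the basal transcription factor p63, had log2 ratios of -1.71, -1.18 and -0.88 and missed the limit in the proton library.

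Some of the other genes among the 15 lowest encode matrix proteins, growth regulators and cell cycle proteins. Sparc, a matrix glycoprotein, was at 18.3, 20.4 and 10.3 CPM against 94.2, 98.3 and 98.2. Sostdc1, a secreted Wnt and BMP antagonist, was at 26.9, 18.4 and 15.5 CPM against 173, 116 and 96.9. Ccnd2 (cyclin D2) was at 56.2, 62.3 and 61.9 CPM against 233, 281 and 235. In each the 3 libraries of members lay below all 3 of the rest, which follows largely from how the 15 genes were picked. Cenpf, a kinetochore protein, had 0, 3 and 0 UMIs in members and 43.2, 18.9 and 19.1 CPM in the rest. The others were Bst1, Tnc, Dgkh, Far1, 8430408G22Rik, Col4a2, Rsu1, Itgb1, Lamb3, Atic and Ctgf. For Bst1, Tnc, Col4a2 and Rsu1 the members of a library held 1 to 5 UMIs. For Dgkh, Far1, 8430408G22Rik and Atic they held 2 to 9, so all these ratios rest on few counts.

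Of 20 measured G2/M genes 9 were lower and none higher (medians -2.00, -1.34 and -1.90), and of 17 S phase genes 4 were lower and none higher. Ube2c, a mitotic ubiquitin-conjugating enzyme, was at 74.6, 36.8 and 23.2 CPM against 139.8, 98.6 and 112, and Cdk1, the mitotic kinase, was at 13.4, 12.3 and 10.3 CPM against 38.2, 26.5 and 29.6. Only Cdk1 of this pair passed the limit. Of 14 measured Notch pathway genes 3 were lower (Notch1, Jag2 and Dll1) and none higher. The receptor Notch1 was at 58.7, 107 and 87.8 CPM against 193, 287 and 330.4. Its targets gave log2 ratios of 0.41, 0.59 and -0.11 for Nrarp and -1.26, -0.88 and -1.08 for Hes1.

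Of 13 tight junction genes 7 were higher, and of 11 desmosome genes 5, with none lower in either list. Cldn4, a tight junction claudin, was at 1980, 1283 and 1813 CPM against 735, 559 and 717, and Cldn7 was at 369, 367 and 440.1 CPM against 98.8, 97.9 and 88.6. The plaque protein desmoplakin (Dsp) was at 1480, 1077 and 1170 CPM against 632, 519.7 and 504, and the cadherin Dsg3 was at 498, 385 and 396 CPM against 124, 119 and 96.9. Perp, a desmosome-associated membrane protein, had log2 ratios of 0.97, 0.79 and 0.69, short of the limit. Not all desmosome genes went this way, as Dsg2, a cadherin, had ratios of -0.59, -0.83 and -1.92.

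Of 13 measured kallikreins and membrane serine proteases outside the ranking 7 were higher, and of 15 protease inhibitors 8, with none lower in either list. Klk8, a kallikrein of the upper epidermis and the most abundant of the proteases, had log2 ratios of only 0.17, 0.70 and 0.30. Tmprss11e was at 182, 242 and 297 CPM against 18.4, 40.8 and 30.1. St14 (matriptase), which starts an epidermal protease cascade, was at 106, 106 and 129 CPM against 30.6, 33.3 and 34.9. Slpi, a secreted inhibitor of leukocyte proteases, was at 718, 1706 and 1309 CPM against 111, 145 and 140.4, and Cstb, a cathepsin inhibitor, had log2 ratios of 0.68, 0.69 and 0.52. Tgm1, the transglutaminase that cross-links the envelope, was at 85.6, 53.1 and 65.8 CPM against 11.4, 11.5 and 9.12.

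Annexins and S100 proteins of the envelope gave 1 higher of 12. This was Anxa1, at 3839, 6622 and 7571 CPM against 1306, 1045 and 1124, while S100a6 had log2 ratios of -0.95, -0.99 and -1.32. Of 19 barrier lipid genes 9 were higher, with Fabp5, a fatty acid carrier, at 12250, 11530 and 11740 CPM against 5074, 3772 and 3692. Of 18 Ly6 family and apical surface genes 13 were higher and 2 lower. Ly6d was at 8140, 8159 and 9268 CPM against 2629, 2722 and 2702, and Ecm1, a secreted matrix protein of upper epidermis, was at 1749, 3386 and 3567 CPM against 845, 1049 and 1101. Ly6a was not among the higher ones, with log2 ratios of -0.31, 0.24 and 0.32.

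Alarmins and antimicrobial genes gave 7 higher of 16, among them the nuclear cytokine Il33 at 624, 1094 and 1272 CPM against 138, 139 and 140.0. Defb1, a constitutive defensin, had log2 ratios of 0.17, 0.16 and -0.05. Of 12 EGF receptor ligands and feedback genes 5 were higher, with the ligand Areg at 307, 660.2 and 545 CPM against 143, 169.7 and 179 and Hbegf at 361, 369 and 423 CPM against 94.2, 77.5 and 67.6. Of 25 transcription factors of stratified epithelium 8 were higher and none lower. Klf3 was at 1175, 919.7 and 1209 CPM against 306, 250.4 and 276. Elf3, an epithelial ETS factor, was at 730.1, 642 and 869.8 CPM against 139, 93.5 and 118. Junb, an AP-1 subunit, had log2 ratios of 0.60, 0.88 and 0.48.

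**Figure D3:**
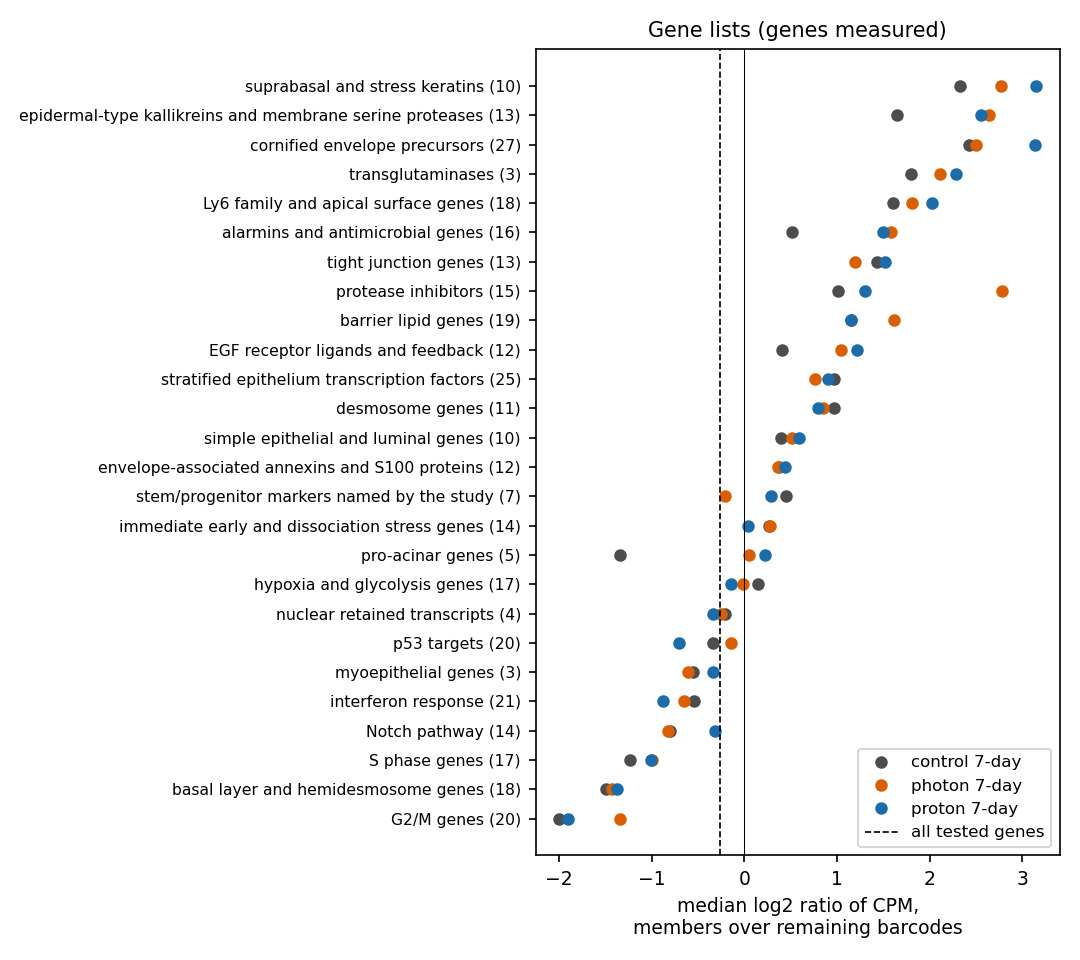
Median log2 ratio of CPM, members over remaining barcodes, of each gene list with at least 3 measured genes (number in brackets), by 7-day library, with the median of all tested genes as a dashed line. Cornified envelope precursors lie at 2.43, 2.50 and 3.14, and basal layer and hemidesmosome genes at -1.49, -1.43 and -1.37.

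Other programmes gave few calls, against 3.51% higher and 5.34% lower over all 12152 genes with at least 10 UMIs. Immediate early and dissociation stress genes gave none higher and 1 lower of 14, hypoxia and glycolysis genes 1 higher and 2 lower of 17, p53 targets none higher and 2 lower of 20, and interferon genes 1 higher and 1 lower of 21. Cdkn1a, the p53 target p21, had log2 ratios of 1.44, 0.59 and 0.99. None of 10 simple epithelial and luminal genes passed the limit, with Epcam at 1427, 1640 and 2180 CPM against 766, 644 and 622. Of 7 stem/progenitor markers named by the study none was higher and Itgb1 was lower. Markers of other cell types were scarce in members, as 14 of 16 immune, 4 of 6 endothelial and all fibroblast, erythroid and glial markers (6, 5 and 4) had no UMI in the members. The immune list summed to 20.6 to 35.8 CPM in members and 19.6 to 36.1 CPM in the rest, mostly from Cd68.

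Several of the higher genes lie side by side in the genome. Of 4843 tested genes placed on the RefSeq positions of GRCm38.p6, 253 were higher. In 3 of 1551 windows of 1 Mb at least 4 genes were higher, 14 of the 18 tested there, and the windows were picked by that count. At 92 to 93 Mb of chromosome 3 these were Sprr1b, Sprr2f, Sprr2h, Sprr2i and the pseudogene Sprr2j-ps (5 of 6 tested), the part of the epidermal differentiation complex that also holds Sprr1a at chr3:92483954-92485881. At 86 to 87 Mb of chromosome 5 they were 5 membrane protease genes, Tmprss11a, Tmprss11b, Tmprss11d, Tmprss11e and Tmprss11g (5 of 6). At 74 to 75 Mb of chromosome 15 they were Ly6d, Psca, Lynx1 and Arc (4 of 6). Cnfn stands at chr7:25367616-25369724 and Krt6b at chr15:101676023-101680293.

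The members were not uniform. Pooled over libraries, Sprr2f was at 32350 CPM in ranks 1 to 100, 12090 in ranks 101 to 200 and 6677 in ranks 201 to 300, and at 3831 in the next 300 barcodes and 604 in the lowest-ranked bin, from rank 1201 on. Cnfn was at 2311, 195 and 63.6 CPM in the same 3 bins of members and at 71.1 CPM in the next 300 barcodes, so the lowest 100 members did not exceed the barcodes just outside. Krt13 was at 4217, 2435 and 1096 CPM. Sprr2f and Krt13 thus declined step by step, and Cnfn dropped after rank 100. Krt17 ran the other way, at 599, 1004 and 1719 CPM and 2765 CPM in the lowest-ranked bin, as did Notch1 at 47.5, 78.4 and 149 CPM and 276 CPM. Krt14 stayed between 4954 and 5400 CPM throughout.

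The number of genes past the limit followed the rank, with 330 higher and 813 lower for ranks 1 to 100, and 84 and 38 for ranks 201 to 300. Of the 254 higher and 289 lower genes, called on sums that include these barcodes, 83 and 34 passed the limit in ranks 201 to 300. Across the 300 members, the score had a Spearman correlation of 0.59 with the share of Sprr2f, 0.52 with Dmkn and -0.39 with Krt17, as a description of barcodes that share libraries and totals. Median depth also fell, from 9556 UMIs in ranks 1 to 100 to 7564 and 5690 in the next bins of 100, and the median mitochondrial share went from 0.819% to 1.33%. The part of depth in these gradients was not tested.

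The 13 members with a Klk10 or Klk14 UMI, 5 control, 2 photon and 6 proton, were picked by a ranking gene and are given as values only. Of these 9 stood in ranks 1 to 100, and they held a median of 14374 UMIs against 7511 in the other members. Klk12, a further kallikrein, was at 486 CPM in them against 28.1 CPM in the other members, with UMIs in 9 of 13, and Klk9 was at 208 against 10.9 CPM. Slpi was at 7016 against 832 CPM, Cnfn at 4508 against 739 CPM with UMIs in 12 of 13, and Psca at 7076 against 1041 CPM. Klk10 transcripts thus stood in few and deep barcodes that were also high in Cnfn and Slpi, and the part of depth was not tested.

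**Figure D4:**
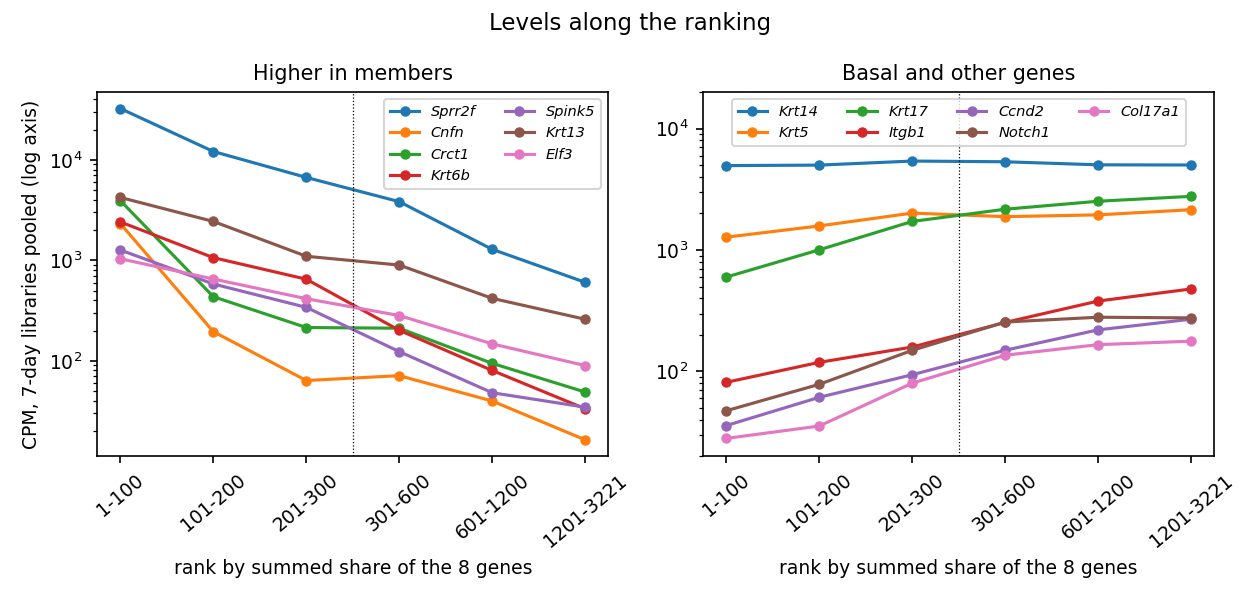
CPM on a log axis of selected genes in bins of rank by the summed share of the 8 ranking genes, 7-day libraries pooled, with members left of the dotted line. Sprr2f falls from 32350 to 604 CPM and Notch1 goes from 47.5 to 276 CPM, while Krt14 stays between 4954 and 5400 CPM.

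Irradiation was described within members, where both contrasts use the same control library. Of 2544 genes with at least 100 UMIs in members and 20 CPM in the higher library, 68 (2.67%) differed at least 2-fold in photon members, 55 (2.16%) higher and 13 (0.511%) lower. In proton members 64 (2.52%) differed, 55 (2.16%) higher and 9 (0.354%) lower. Scaled by median of ratios, the photon split was 42 higher and 24 lower. The median log2 ratio of these genes was 0.04 for photons and 0.05 for protons. Both irradiated libraries were at least 2-fold higher for 33 genes (1.3%) and lower for 3 (0.118%). The irradiated members also stood higher in the ranking, since 28.0% of members lay in ranks 1 to 100 in the control library, 33.3% in the photon and 39.3% in the proton library. The part of rank in the ratios was not tested. Levels within ranks are given beside the highest and lowest genes and for some of the lists.

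Psca, a membrane-anchored Ly6 family protein, was the highest of these genes by the smaller of its photon and proton ratios. It was at 187, 2502 and 1521 CPM in control, photon and proton members, irradiated over control log2 ratios of 3.73 (3.50 to 3.99) and 3.02 (2.78 to 3.28). In the remaining barcodes it was at 31.7, 95.9 and 53.1 CPM. The difference was larger in the upper ranks. Ranks 1 to 100 had 577, 5023 and 3166 CPM, and ranks 101 to 300 had 52.6, 304 and 48.9 CPM, where the proton ratio was -0.10. Of the 2448 Psca UMIs in photon members 850 came from 2 barcodes, those with a Klk10 or Klk14 UMI. Without the 13 members that had such a UMI it was at 174, 1701 and 1108 CPM.

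The neutrophil-attracting chemokine Cxcl5 was at 7.34, 51.1 and 69.7 CPM, from 6, 50 and 54 UMIs, and in ranks 101 to 300 at 4.93, 38.3 and 97.8 CPM. Hilpda, a lipid droplet protein induced by hypoxia, was at 7.34, 65.4 and 50.3 CPM, from 6, 64 and 39 UMIs, and 11.1, 18.1 and 16.3 CPM in the rest. Ranks 101 to 300 held 2, 8 and 4 of these UMIs, at 3.29, 15.3 and 9.78 CPM, so most came from ranks 1 to 100. The gene 2300002M23Rik was at 29.4, 197 and 222 CPM. This last difference was in the upper ranks, since ranks 101 to 300 had 24.7, 13.4 and 26.9 CPM. Of its 172 UMIs in proton members 129 came from the 6 proton barcodes with a Klk10 or Klk14 UMI.

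Krt10 was lowest after irradiation, at 1125, 399.6 and 520.1 CPM, log2 ratios of -1.49 (-1.67 to -1.32) and -1.11 (-1.29 to -0.94). It was lower in the rest as well, by ratios of -1.47 and -1.58, and in ranks 101 to 300, at 1051, 178 and 374 CPM. The histone gene Hist1h2bc was at 421, 194 and 204 CPM and the kinase gene Pim3 at 331, 124 and 178 CPM. In both the irradiated libraries were also lower in the rest. In ranks 101 to 300 Hist1h2bc was at 413, 179.8 and 183 CPM and Pim3 at 327, 151 and 276 CPM, so the proton difference of Pim3 was small there. Ube2c was at 74.6, 36.8 and 23.2 CPM and in ranks 101 to 300 at 85.5, 51.7 and 24.5 CPM. The homeobox gene Irx2 was at 138, 68.5 and 72.3 CPM in members and at 61.3, 61.8 and 71.8 CPM in the rest. In ranks 101 to 300 it was at 105, 61.2 and 85.6 CPM.

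**Figure D5:**
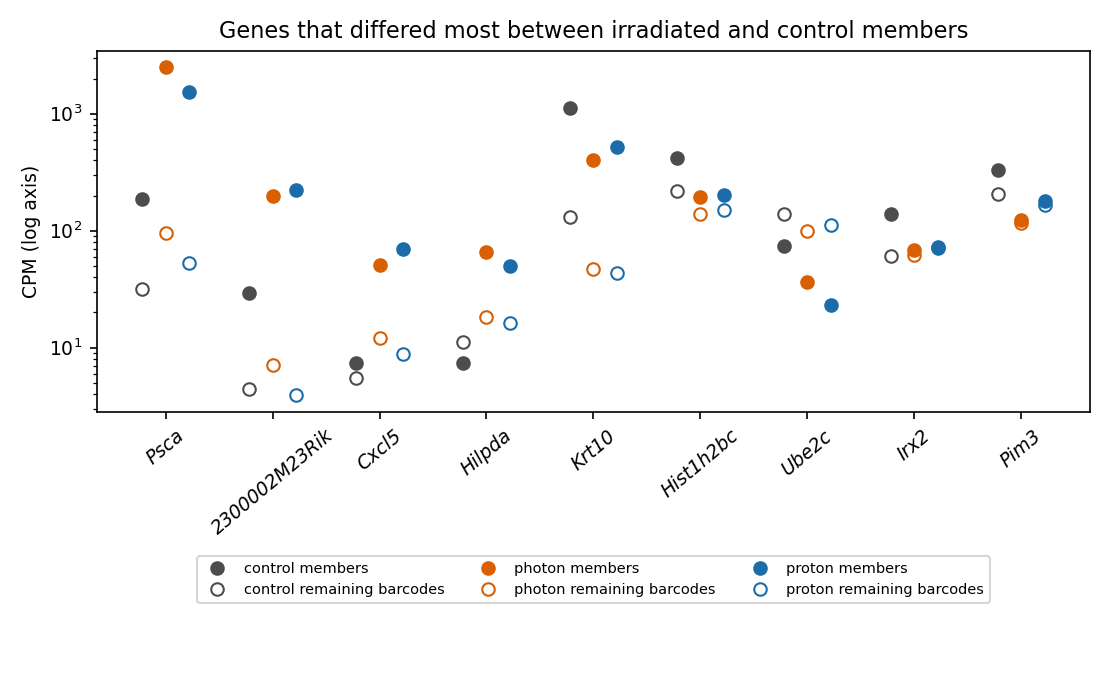
CPM on a log axis in members (filled) and remaining barcodes (open) of the control, photon and proton 7-day libraries, for 4 of the 5 highest and the 5 lowest genes by the smaller of both irradiated over control ratios. Psca goes from 187 CPM in control members to 2502 and 1521, and Krt10 from 1125 to 399.6 and 520.1.

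List genes entered with at least 10 UMIs in members, and of all 8112 genes at that limit outside the ranking 9.94% were at least 2-fold higher and 3.44% lower with photons. With protons 9.05% were higher and 4.72% lower, and the medians of all these genes were 0.10 and 0.07. Of 12 interferon genes 8 were at least 2-fold higher with photons, and with protons 8 were higher and 1 lower, with medians of 1.63 and 1.69. The rest had medians of 1.37 and 1.22 for these genes. Isg15, a ubiquitin-like interferon-induced protein, was at 8.56, 27.6 and 33.5 CPM in members and 12.97, 52.0 and 62.5 in the rest. Alarmins and antimicrobial genes had medians of 0.93 and 0.77 in members against 0.30 and 0.15 in the rest, with 8 and 7 of 16 at least 2-fold higher. Kallikreins and serine proteases had medians of 0.81 and 0.77 in members against 0.14 and 0.03, and protease inhibitors 0.74 and 0.55 against -0.03 and -0.01. The summed level of the protease list was 1030, 1793 and 1576 CPM in control, photon and proton members of ranks 1 to 100. It was 707, 631 and 754 CPM in ranks 101 to 200 and 461, 654 and 467 CPM in ranks 201 to 300, so both irradiated libraries were higher in the upper ranks and not throughout. The alarmin list summed to 2351, 3765 and 3488 CPM in ranks 1 to 100, to 1737, 2432 and 3244 CPM in ranks 101 to 200 and to 1580, 2236 and 1167 CPM in ranks 201 to 300. Photon members were above control in each of these bins, and proton members in the upper 2. Of 25 cornified envelope precursors 4 were at least 2-fold higher and 1 lower with photons, and 5 higher and none lower with protons, with medians of 0.22 and 0.25. The list summed to 60160, 51260 and 49270 CPM in ranks 1 to 100, to 19490, 20920 and 18890 CPM in ranks 101 to 200 and to 14290, 9025 and 11700 CPM in ranks 201 to 300. Both irradiated libraries were thus below control in ranks 1 to 100 and 201 to 300, opposite in direction to the medians. Desmosome genes had medians of -0.39 and -0.33 against -0.20 and -0.27 in the rest, and p53 targets 0.42 and 0.28 against 0.25 and 0.38. Among the ranking genes, whose values chose the members, Sprr1a had ratios of 0.74 and 0.79, and Klk10 had 4, 11 and 76 UMIs. In ranks 101 to 300 Sprr1a was at 2081, 1917 and 2016 CPM, not higher in the irradiated libraries.

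In the 11-day library 5124 of 9282 eligible barcodes (55.2%, 54.2 to 56.2%) reached the score of the lowest member. Fresh tissue had 0 of 128, with a Clopper-Pearson upper limit of 2.84%, and the limit of 3 counts set for a count of 0 allows up to 2.34%. Day and any difference in animals or run cannot be told apart for the 11-day library. Its score rested on Sprr1a, at 2462 CPM over eligible barcodes, with Sprr2d at 44.3 CPM and 8 UMIs of Klk10. Fresh tissue had no UMI of Sprr1a, while Krt23 was at 63.9 CPM and Ceacam1 at 50.6 CPM.

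The 300 highest 11-day barcodes, with a median score of 1.09%, shared part of the pattern. Sprr2f was at 1367 CPM there against 12.3 CPM in the other 11-day barcodes, Krt6b at 192 against 4.00, Krt13 at 507 against 77.3 and Psca at 1393 against 55.1. Cnfn had 1 UMI in these 300 barcodes and 4 in the rest. Krt10 was at 13.6 CPM against 22.8 and Itgb1 at 504 against 535. Sprr2f, Krt6b, Krt13 and Psca were thus higher in the top 11-day barcodes, while Krt10 (14 UMIs) was short of a 2-fold difference, Cnfn was nearly undetected and Itgb1 was level. Of the 254 genes higher in 7-day members 219 could be compared, and 29 (13.2%) were at least 2-fold higher in the top 11-day barcodes, against 0.732% of 4783 genes. Of the 289 lower genes 283 could be compared, and 23 (8.13%) were at least 2-fold lower, against 0.899%. Their median log2 ratios were 0.28 and -0.19.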

How the data were processed

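Single-cell RNA libraries of 3 groups of 7-day mSGOs, 1 group of 11-day mSGOs and fresh gland were analysed, 1 library a group. The authors deposited matrices of UMI counts per gene and barcode, not normalised. Matrix headers name software 3.0.1 (7.0.0 for the 11-day library), and the submitters' processing notes list Cell Ranger 5 and mm10, whereas the study's methods name GRCm39. The build of the counts was therefore not settled, and positions and upstream sequences are RefSeq's (GRCm38.p6). UMI correction, alignment and cell calling were done by the authors before deposit.

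Barcodes with at least 2000 UMIs, at most 5% mitochondrial and at least 1% Malat1 UMIs were ranked by the summed share of 8 genes. UMIs were summed per library over members and rest and scaled to CPM. Log2 ratios used 1 CPM as pseudocount, and the 8 genes were left out of the genes tested. A gene entered with 200 UMIs and 20 CPM, and a list gene with 10 UMIs. Intervals are Clopper-Pearson for shares and conditional binomial for ratios (95%), and a count of 0 was given a limit of 3 counts. Scrublet (Scanpy 1.11.5) marked barcodes at a uniform expected rate of 0.8% per 1000 barcodes. Scripts ran on Python 3.11.15, NumPy 2.4.6, SciPy 1.17.1 and pandas 2.3.3 and were tested on simulated data.

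Members and lists were chosen with earlier results of these data known. Named genes are the 20 highest and 15 lowest by the smallest ratio over 3 libraries, the 5 highest (1 of them is not reported here) and 5 lowest after irradiation, and the most abundant list genes. Markers of the label, genes counted to complete a list, genes of the 3 windows and Klk9, Klk12, Lamb3, Trp63 and Tgm1 beside them were named after their values were seen. Alternatives covered the number of members, barcode filters, ranking, scaling, pseudocount, depth and leaving out a library. Rank tiers, the barcodes with Klk10 or Klk14 and the 11-day top 300 were added after seeing the data.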

Additional observations from a re-analysis of the deposited data

Results flagged for a closer look

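Hypoxia and glycolysis genes had a median log2 ratio, members over rest, of 0.15 in the control library and of -0.02 and -0.14 in the photon and proton libraries (17 genes). Pro-acinar genes had -1.34 in the control library and 0.05 and 0.22 in the irradiated ones (5 genes). The control median of the pro-acinar genes is Chrm3, with 0 UMIs in members and 9 in the rest, while Sostdc1 and Aqp5 were below and Clcn3 and Alcam above the rest in each of the 3 libraries. Both list medians thus had opposite signs in the control and irradiated libraries, the second by a gene at 0. Irx2 was lower in photon than in control members, by a log2 ratio of -1.003, while its ratios in the remaining barcodes were 0.01 for photons and 0.23 for protons. With 1 library a group these differences were not tested.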

How the results depend on the processing

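No paired analysis was possible because each group is 1 library, so replicate numbers pair nothing in the irradiation contrasts. Members and rest were compared within each library, with no test since the ranking chose the members. Stating a spread between cultures or animals is not possible for any value here, and counting error is the only error given. With 150 or 600 highest barcodes, members were 4.91% or 19.9% of eligible control barcodes, 4.83% or 21.9% of photon and 4.28% or 14.2% of proton barcodes. A minimum of 4000 UMIs gave 14.4%, 13.5% and 9.52%, and a minimum of 1000 gave 8.49% in the photon and 5.79% in the proton library. A mitochondrial limit of 10% gave 8.46% and 5.63% in these libraries. A minimum of 2500 detected genes gave 48.1%, 54.3% and 37.1%. Taking the same share of each library set the proton share at 9.34%, which is a setting and not a result.

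The number of genes tested, 4869 in the report, was 4383 with 2500 detected genes, 3365 with barcodes thinned to 2000 UMIs and 11161 with 20 UMIs and no CPM minimum. The 254 higher genes became 42, 120 and 414 under these, and 84 for ranks 201 to 300. The 289 lower genes became 593 and 71 with 150 and 600 barcodes, 3 with 2500 detected genes, 111 when thinned, 173 by mean rank, 122 by median of ratios, 190 with 5 CPM added, 649 without a CPM minimum, and 813 and 38 for ranks 1 to 100 and 201 to 300. Leaving out a library and requiring the other two gave 271 to 312 higher and 374 to 392 lower genes. After photons the 68 genes became 17 when thinned, 616 without a CPM minimum, and 271 and 113 for ranks 1 to 100 and 101 to 300. After protons the 64 became 29, 618, 304 and 103, and 110 by mean rank. Of 2544 genes compared after irradiation, thinning left 735, and no CPM minimum with 20 UMIs gave 6501.

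The 11-day share of 55.2% became 49.4% and 58.1% with 1000 and 4000 UMIs, 53.1% and 57.8% with Malat1 limits of 0.5% and 2%, 50.4% with the 10% mitochondrial limit, 88.1% with 2500 detected genes and 57.8% when thinned. Fresh tissue went to 50.0% with 2500 detected genes (5 of 10 barcodes). Signs changed for 8430408G22Rik (0.10) and Cenpf (0.082) with 2500 detected genes, for Ube2c after photons with 600 barcodes (0.085) and thinned (0.033), for 2300002M23Rik after photons in ranks 101 to 300 (-0.84), for Irx2 after protons with 2500 detected genes (0.49) and for Psca after protons in ranks 101 to 300 (-0.10). The other alternatives kept the direction of the 35 genes named against the rest and of the 10 genes ranked first after irradiation. The cause of these changes was not tested.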
